A study of Mus musculus with 17 samples.

Results

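Cell lines grown from bone marrow (BM) metastases were compared with lines from the primary tumor of the mammary fat pad (MFP). The comparison used 6 of the 14 bulk RNA-seq libraries of the study, which held 17 samples in all, and the libraries were chosen by their labels: 4 BM libraries against 2 MFP libraries. All lines came from tumor-bearing female FVB/NJ mice with the MMTV-PyMT transgene, in which the mammary tumor virus promoter drives the polyoma middle T oncogene in mammary epithelium. The mice were 10 to 12 weeks old by the methods, and the labels name no gene edit and no agent for either group. The BM cells were sorted as EpCAMhigh with either a CD44low or a CD44high surface profile, 2 libraries each, and both profiles were pooled here. The MFP libraries carry no CD44 profile in the labels, which call them tissue where the BM libraries are called cell lines. Replicates were distinct clonal isolates from different mice by the methods, so each library stands for 1 isolate after about 1 month in culture.

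Breast cancers seed the skeleton often, and tumor cells that grow in marrow are known to secrete matrix proteins and cytokines that act on osteoblasts and osteoclasts. Osteopontin (*Spp1*), osteonectin (*Sparc*) and periostin (*Postn*) are matrix proteins made by bone cells and by many carcinomas, and osteoprotegerin (*Tnfrsf11b*) is the decoy receptor that blocks the osteoclast factor RANKL (*Tnfsf11*). Carcinoma cells may also lose tight junctions and hemidesmosomes and gain vimentin and other mesenchymal genes, a change called epithelial-to-mesenchymal transition (EMT). Placental and germline genes, many of them on the X chromosome, are held silent in adult tissue in large part by DNA methylation and can be switched on in tumors.

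Values are TPM, transcript abundances that are corrected for transcript length and sum to 1000000 in every library, so they keep no record of depth. The methods state a minimum of 10 M reads per library. Between 11825 and 13052 genes reached 1 TPM in the 6 libraries. The library BM CD44low replicate 2 stood apart. Its Spearman correlation with the other BM libraries was 0.863 to 0.874, against 0.945 to 0.949 among those 3. In it 708 genes lay over 4-fold above every other BM library, against 16 to 23 genes in each of the others. It held 112.6 TPM of the signal recognition particle RNA *Rn7s1*, against 25084 to 41163 in the other BM libraries, and 9624 TPM of *AY036118*, which reached 26.3 at most in those. The lung libraries of the study shared this pattern, with 117 to 1143 TPM of *Rn7s1* and 502 to 10368 TPM of *AY036118*. Counts of genes below are followed by the count without this library where that differs, and the part of library preparation was not tested.

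The sorted cell type was checked against its markers. *Epcam*, the epithelial adhesion molecule used for the sort, stood at 794, 464, 700.2 and 519 TPM in the BM libraries and at 837 and 725 TPM in MFP (log2 fold change −0.36 ± 0.27 (SE), limma adjusted p = 0.361). *Krt8*, the simple epithelial keratin, stood at 1926, 498, 1280.0 and 1166 TPM in BM against 2966 and 2631 TPM in MFP. The 10 epithelial markers summed to 4449, 2373, 3207 and 2694 TPM in BM and to 7628 and 6782 TPM in MFP. Of the 9 that were tested 4 were lower (*Cdh1*, *Cldn4*, *Cldn7* and *Elf3*) and 0 higher, where 3.93% of all genes tested were lower and 3.97% higher. All 6 libraries were thus epithelial by these markers, with the summed level lower in BM. The summed TPM of 10 lymphoid markers was at most 0.8 in every library, and that of 10 hematopoietic markers was 4.7 to 9.3 in BM and 0.3 to 0.4 in MFP, with *Ptprc* under 1 TPM throughout. Of the 2 hematopoietic markers tested *Vav1*, a signaling protein of blood cells, was higher, at 3.81, 1.85, 5.56 and 3.35 TPM in BM against 0 and 0 TPM in MFP. The 15 macrophage and monocyte markers summed to 76.7 to 269 TPM in BM and to 105.1 and 62.2 TPM in MFP, most of it *Cd14*. *Cd68* was lower in BM (log2 fold change −2.09). It was not called without BM CD44low replicate 2 (−1.996) or with median-ratio scaling (−1.72). The 10 fibroblast markers summed to 43.6 to 46.2 TPM in BM and to 0.5 and 1.3 TPM in MFP. Of 5 tested fibroblast markers 3 were higher, *Postn*, *Pdgfrb* and *Pdgfra* (2 without BM CD44low replicate 2, where *Pdgfra* lost its call), and *Postn* made up most of the BM sum. *Pdgfra* stood at 3.34, 9.10, 4.09 and 4.17 TPM in BM against 0.35 and 0.48 TPM in MFP, and *Col1a1* at 0.63 to 1.72 TPM in BM. The 10 osteoblast and marrow stroma markers summed to 37.4 to 61.1 TPM in BM and 15.4 to 16.8 TPM in MFP. Of the 3 tested members *Alpl*, the alkaline phosphatase of mineralizing cells, and *Dmp1*, a bone matrix protein, were higher. *Alpl* stood at 13.96, 10.92, 39.56 and 19.14 TPM in BM against 0 and 0.04 TPM in MFP, and *Dmp1* at 1.47 to 7.66 TPM against 0 and 0 TPM, while the osteocalcin gene *Bglap* was at 0 to 2.28 TPM in BM. The part of such cells in the results was not tested. The 10 neutrophil markers summed to 13.4, 22.5, 329 and 40.5 TPM in BM against 4.7 and 2.8 TPM in MFP. Most of that was *S100a8*, which epithelial cells also make. In bulk samples fewer cells of a type and less RNA per cell cannot be told apart. *Cd44* did not follow the sort within BM: it stood at 43.8 and 74.9 TPM in the CD44low libraries and at 50.5 and 49.0 TPM in the CD44high libraries. All 4 lay below MFP, at 399.9 and 209.7 TPM (log2 fold change −2.42 ± 0.33, adjusted p = 0.00324). The fold change was under the threshold of 2 with median-ratio scaling and without MFP replicate 1 (−1.95).

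Of 55450 genes measured, 13410 reached 1 TPM in 2 or more of the 6 libraries and were tested. Among them 1060 (7.90%) were differentially expressed genes (DEGs), which passed both a log2 fold change of 2 in size and an adjusted p of 0.05 in limma on log2(TPM + 1). Compared to MFP, 533 genes (3.97%) were higher in BM and 527 genes (3.93%) were lower. In each of the 1060 the 4 BM libraries lay on 1 side of both MFP libraries. Among all genes tested, 2240 (16.7%) had every BM library above both MFP libraries and 4540 (33.9%) had every BM library below. The median log2 fold change over all genes was −0.26. When TPM were divided by each library's median ratio this median moved by 0.36, to 0.10, and the split became 656 higher and 369 lower. Without BM CD44low replicate 2 there were 528 higher and 608 lower DEGs, and 491 of the 533 and 511 of the 527 were still called. Without MFP replicate 1 there were 403 higher and 247 lower DEGs, without MFP replicate 2 there were 383 and 250, and with a pseudocount of 0.1 there were 1074 and 799. The higher DEGs included 439 protein-coding genes and the lower DEGs 482. The lower DEGs took 4.72% and 5.69% of all TPM in the MFP libraries and 0.359% to 0.484% in the BM libraries. The higher DEGs took 4.51% to 6.95% in BM and 0.32% to 0.432% in MFP. Fold changes here are on the log2(TPM + 1) scale, which understates the change of low genes, and BM values are listed in the order CD44low replicates 1 and 2, then CD44high replicates 1 and 2.

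**Figure D1:**
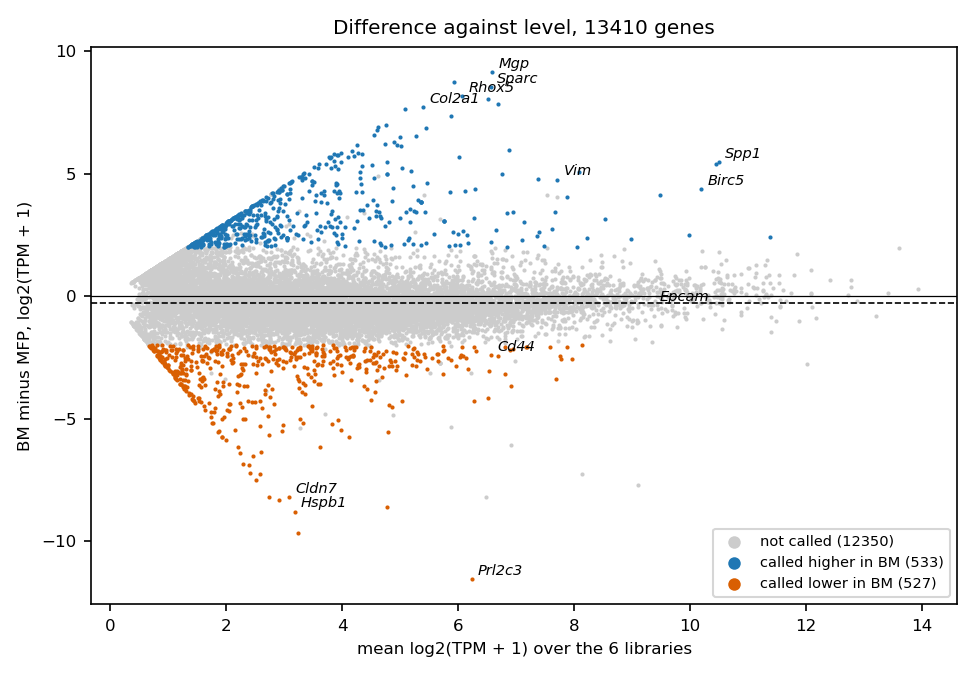
Difference between the BM and MFP means on the log2(TPM + 1) scale (vertical) against the mean log2(TPM + 1) of the 6 libraries (horizontal), 1 point per gene, with the 533 higher DEGs in blue, the 527 lower DEGs in orange and a dashed line at the median of all genes, −0.26. *Spp1* and *Birc5* combine a high level with a rise of over 4, *Prl2c3* is the lowest point, and *Epcam* lies near 0.

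The 10 largest rises among protein-coding genes and named RNAs were *Mgp*, *1500015O10Rik*, *Sparc*, *Rhox5*, *Wfdc18*, *Col2a1*, *G0s2*, *Trf*, *Scd1* and *Cst6*. *Mgp*, matrix Gla protein, which keeps cartilage and vessels from calcifying (mm10, chromosome 6, 136872435 to 136875823), led them at 432, 342, 3319 and 798 TPM in BM against 0.98 and 0 TPM in MFP (log2 fold change 9.14 ± 0.91, adjusted p = 0.00106). *Sparc*, osteonectin (chromosome 11), stood at 903, 427, 652 and 823 TPM against 1.39 and 0.42 TPM (8.52 ± 0.36, adjusted p = 7.9e-05). *Wfdc18*, a secreted whey acidic protein family member, stood at 563, 680.0, 700.0 and 429 TPM against 2.15 and 0.54 TPM (8.05 ± 0.34, adjusted p = 7.9e-05). These 3 genes were at 2.15 TPM or less in MFP and at 342 TPM or more in every BM library. *Scd1*, the stearoyl-CoA desaturase, stood at 110.06, 114, 164 and 162 TPM against 0.13 and 0 TPM (7.001 ± 0.25, adjusted p = 5.4e-05). *Cst6*, a secreted cysteine protease inhibitor, stood at 232, 217, 177 and 219 TPM against 1.46 and 0.37 TPM (6.85 ± 0.27, adjusted p = 7.9e-05). The BM libraries lay close together for both genes. *Trf*, the iron carrier transferrin, varied more, at 376, 113, 956 and 266 TPM against 2.0 and 0.27 TPM (7.37 ± 0.82, adjusted p = 0.00157). *G0s2*, an inhibitor of lipolysis, was listed at 0 in both MFP libraries and at 138, 112, 485 and 203 TPM in BM.

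The largest falls given here were *Prl2c3*, *mt-Tc*, *Hspb1*, *Prl2c2*, *mt-Tt*, *Cldn7*, *Sfn*, *Ap1m2* and *Ppic*. *Prl2c3*, proliferin, a placental hormone of the prolactin family on chromosome 13, was among the most abundant transcripts of MFP, at 18129 and 13372 TPM or 1.81% and 1.34% of the library, and stood at 20.9, 2.17, 1.56 and 3.19 TPM in BM (log2 fold change −11.54 ± 0.85, adjusted p = 0.000377). *Prl2c2* and *Prl2c5* were lower as well, but these paralogs are nearly identical and their shares of the reads are uncertain, as are the counts of the very short mitochondrial tRNAs *mt-Tc* and *mt-Tt*. *Hspb1*, the small heat shock protein HSP27, stood at 0.85, 0.06, 0 and 0 TPM in BM against 519 and 535 TPM in MFP (−8.80 ± 0.33, adjusted p = 6.2e-05). *Sfn*, the epithelial 14-3-3 sigma protein, stood at 0.34, 0.17, 0 and 0 TPM against 193 and 154 TPM (−7.27 ± 0.26, adjusted p = 5.4e-05). Both genes were thus under 1 TPM in every BM library. *Ap1m2*, the epithelial subunit of a sorting adaptor, stood at 0.27, 0.02, 0 and 0 TPM against 109.9 and 145 TPM (−6.90 ± 0.26, adjusted p = 6.2e-05). *Ppic*, a cyclophilin, was listed at 0 in all 4 BM libraries and at 152 and 86.1 TPM in MFP. All 7 protein-coding genes of this group went from at least 86.1 TPM in MFP to 20.9 TPM or less in every BM library.

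**Figure D2:**
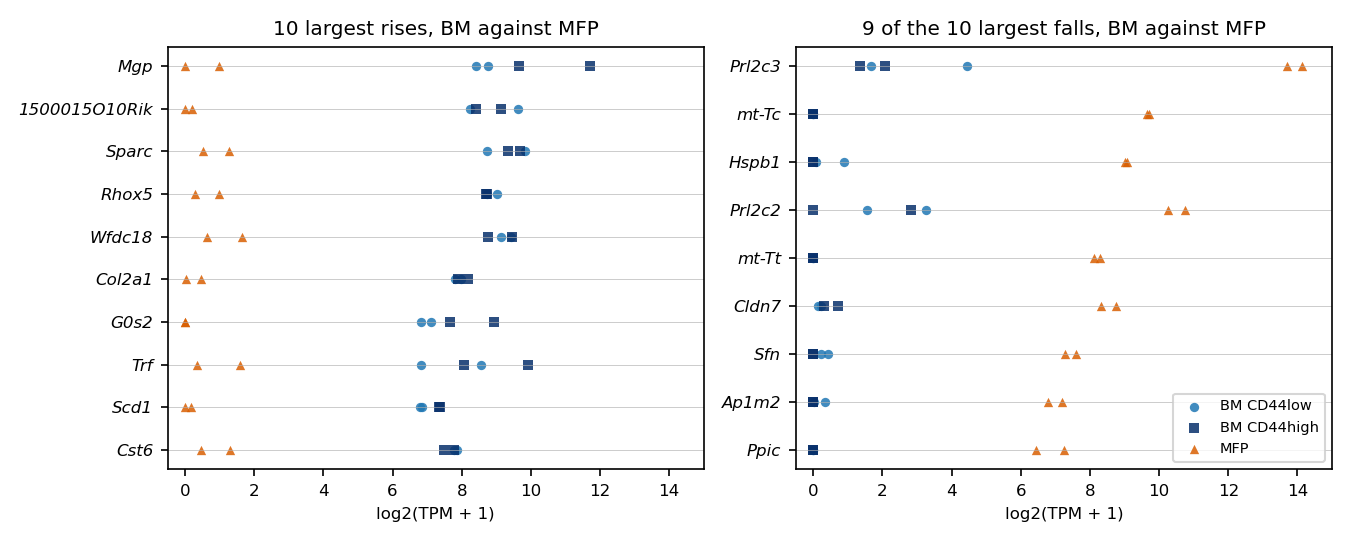
Level of the 10 largest rises (left) and of 9 of the 10 largest falls (right) in each library, as log2(TPM + 1), with circles for BM CD44low, squares for BM CD44high and triangles for MFP libraries. Every BM point is separated from both MFP points, and for some genes, such as *Mgp* and *Prl2c3*, the BM points are spread widely among themselves.

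Many matrix genes were higher in BM. Of 18 tested (27 listed) collagen genes 8 (44.4%) were higher and 2 (11.1%) lower, beside 3.97% and 3.93% of all genes, and 9 were higher without BM CD44low replicate 2. The list median log2 fold change was 1.83. *Col6a1*, *Col6a2*, *Col9a1* and *Col11a1* were under 1 TPM in both MFP libraries and so passed the filter through BM alone. *Col7a1*, a lower member, passed it through MFP alone. The filter thus partly sets these shares. *Col6a1*, a chain of microfibrillar collagen VI, stood at 54.2, 73.7, 104 and 71.1 TPM in BM against 0.33 and 0.26 TPM in MFP (log2 fold change 5.85 ± 0.28, adjusted p = 0.000106), and its partner *Col6a2* at 27.7, 41.1, 53.8 and 38.4 TPM against 0.03 and 0.11 TPM (5.23 ± 0.30, adjusted p = 0.000176). The fibrillar collagen of bone, *Col1a1*, was at 0.63 to 1.72 TPM in BM and was not called (0.72 ± 0.31, adjusted p = 0.129). *Col12a1* and *Col7a1*, the anchoring fibril collagen of the epidermal basement membrane, were lower. Of 16 matricellular and adhesive glycoprotein genes 6 were higher (*Ccn5*, *Efemp2*, *Matn2*, *Postn*, *Sparc* and *Spp1*) and 2 lower (*Fbln2* and *Tnc*). *Efemp2*, fibulin-4, which assembles elastic fibers, was the steadiest of them at 114, 108, 101 and 110.4 TPM against 1.97 and 1.90 TPM (5.22 ± 0.16, adjusted p = 4.5e-05). *Postn* stood at 35.1, 23.7, 30.8 and 28.3 TPM against 0.04 and 0.02 TPM. Fibronectin (*Fn1*) was at 184, 657, 161 and 158 TPM against 161 and 38.6 TPM and was not called (1.56 ± 0.77, adjusted p = 0.181). Of 28 matrix proteases and inhibitors 5 were higher and 6 lower (8 without BM CD44low replicate 2). The lower ones held *Mmp10*, stromelysin 2 (0.51, 0.27, 0 and 0.21 TPM against 79.2 and 17.3 TPM), and the metalloprotease-disintegrin *Adam8* (0.31 to 0.74 TPM against 26.2 and 37.0 TPM).

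Genes of cartilage, a tissue that makes collagens II, IX and XI under SOX9, SOX5 and SOX6, stood out among the collagens after the values had been seen. By a list put together with these results known, 15 of 25 such genes passed the filter and 10 of those were called, all higher, beside 3.97% of all genes. Except for *Sox9* and *Mia*, the 15 were under 1 TPM in both MFP libraries and so passed the filter through BM alone. The 10 genes that did not pass it were *Acan*, *Chad*, *Col10a1*, *Comp*, *Cytl1*, *Epyc*, *Hapln1*, *Matn1*, *Matn3* and *Prg4*. They include aggrecan (*Acan*), the main proteoglycan of cartilage, which was listed at 0 in all 6 libraries, and *Comp*, which reached 0.42 TPM in BM at most. *Col2a1*, the main collagen of cartilage (chromosome 15, 97975602 to 98004695), stood at 253, 223, 236 and 287 TPM in BM against 0.38 and 0.02 TPM in MFP (log2 fold change 7.72 ± 0.20, adjusted p = 2.7e-05). *Cnmd*, chondromodulin, which blocks vessel growth in cartilage, stood at 133, 128, 86.4 and 117 TPM against 0.10 and 0 TPM (6.78 ± 0.23, adjusted p = 5.4e-05). *Col9a1* stood at 41.5, 36.8, 63.5 and 41.9 TPM against 0.16 and 0 TPM (5.41 ± 0.28, adjusted p = 0.000133), and *Col11a1* at 31.0, 34.2, 25.5 and 27.7 TPM against 0.10 and 0 TPM (4.86 ± 0.23, adjusted p = 0.000101). The 4 BM libraries agreed closely on these genes, BM CD44low replicate 2 among them. The transcription factor *Sox5* was listed at 0 in both MFP libraries and stood at 9.91 to 16.6 TPM in BM, and *Sox6* stood at 4.99 to 14.9 TPM against 0.57 and 0.50 TPM. *Sox9* itself was high in both groups, at 123, 358, 123 and 116 TPM against 155 and 152 TPM (0.05 ± 0.48, adjusted p = 0.955). *Matn4*, *Snorc*, *Mgp* and *Ucma* completed the 10, and *Ucma* lost its call without BM CD44low replicate 2. In the lymph node (LN) lines *Col2a1* stood at 49.7 and 60.4 TPM with CD44low and at 282 and 299.7 TPM with CD44high, and *Cnmd* at 0.91, 8.66, 75.8 and 64.9 TPM.

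**Figure D3:**
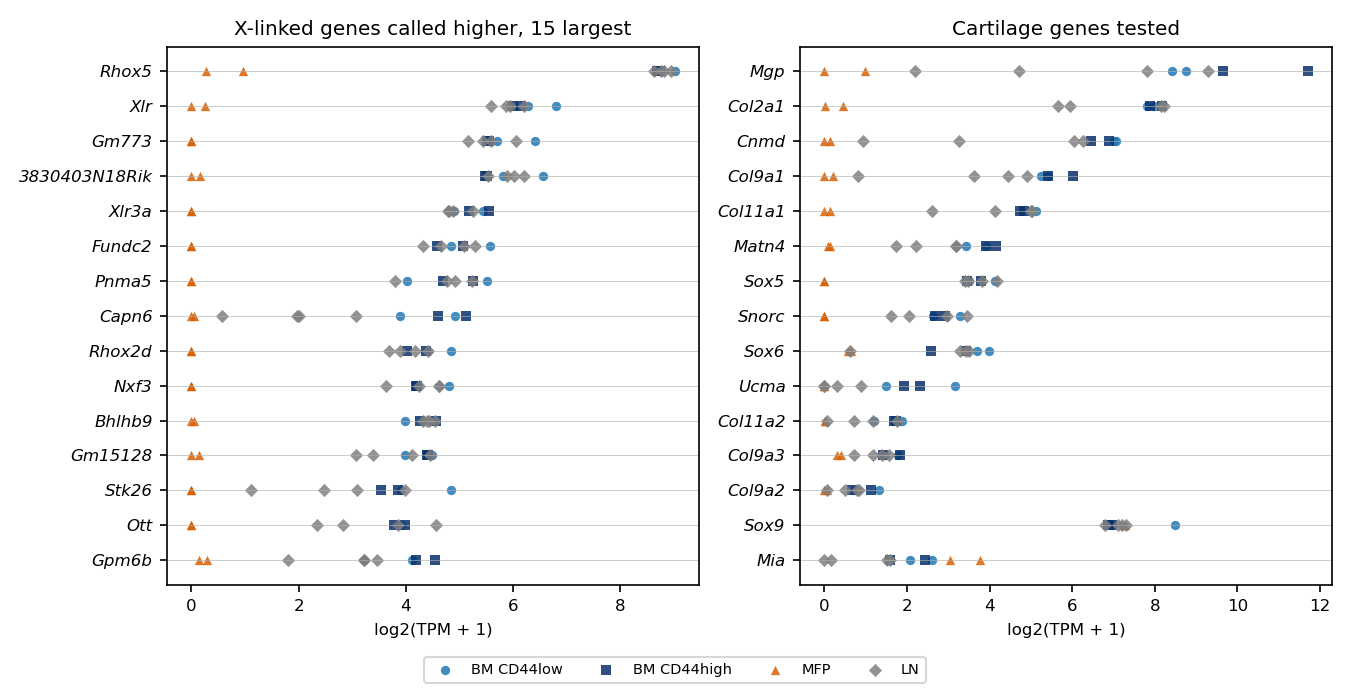
Level as log2(TPM + 1) in each BM, MFP and LN library for the 15 X-linked DEGs with the largest rise (left) and the 15 tested cartilage genes (right), both chosen after the values were seen. MFP triangles lie at or near 0 for nearly all of them, *Sox9* is high in every library, and *Mia* is the cartilage gene with MFP above BM.

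Of the bone metastasis and bone tropism genes, 26 were tested, and 8 were higher and 6 lower, with a list median of −0.56. The shares were 30.8% and 23.1%, beside 3.97% and 3.93% of all genes, and 9 were higher without BM CD44low replicate 2. *Spp1*, osteopontin (chromosome 5), stood at 6640, 1793, 9362 and 6233 TPM in BM against 207 and 62.3 TPM in MFP (log2 fold change 5.48 ± 0.76, adjusted p = 0.00353). Its lowest BM library was CD44low replicate 2, which still lay over both MFP libraries. *Lcn2*, the siderophore-binding lipocalin 2, stood at 2734, 2609, 12527 and 6172 TPM against 356 and 36.7 TPM (5.38 ± 1.02, adjusted p = 0.0107), a call that was lost without MFP replicate 2 (3.76, adjusted p = 0.0761). *Tnfrsf11b*, osteoprotegerin, stood at 78.2, 37.9, 37.9 and 59.9 TPM against 0.04 and 0 TPM (5.67 ± 0.35, adjusted p = 0.000216). Its ligand *Tnfsf11* (RANKL) was listed at 0 in every BM and MFP library, and the RANK receptor *Tnfrsf11a* stood at 0.44 to 1.38 TPM against 1.65 and 1.24 TPM (−0.30 ± 0.27, adjusted p = 0.458). *Ceacam1*, a homophilic adhesion molecule, stood at 51.8, 57.9, 47.1 and 41.9 TPM against 0.23 and 0.29 TPM (5.32 ± 0.22, adjusted p = 7.9e-05). The chemokine receptor *Cxcr4* was undetected in the BM lines, at 0 TPM throughout, beside 0.15 and 0 TPM in MFP. *Il2* stood at 0.26 to 0.66 TPM in BM against 1.15 and 0.67 TPM and did not pass the filter. *Ccl2*, the monocyte chemokine, stood at 56.3, 61.9, 101 and 196 TPM against 279.8 and 219.6 TPM (−1.43 ± 0.51, adjusted p = 0.0793), and the protease *Adamts1* at 23.4, 48.7, 11.7 and 15.8 TPM against 77.1 and 19.24 TPM (−0.82 ± 0.71, adjusted p = 0.437), where the groups overlapped. The 6 lower genes were *Areg*, *Ereg*, *Jag1*, *Lif*, *Ptgs2* and *Pthlh*, which include the parathyroid hormone-related protein of osteolytic metastasis (*Pthlh*) and cyclooxygenase 2 (*Ptgs2*, 27.4 to 36.4 TPM against 267 and 198 TPM).

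Acute-phase and antimicrobial secreted proteins, which epithelia release toward bacteria, were higher in 5 of 17 tested genes and lower in 0, beside 3.97% and 3.93% of all genes, with a list median of 2.23. The 5 were *Lcn2*, *Lbp*, *Pglyrp1*, *Cp* and *Ltf*, and 8 were higher without BM CD44low replicate 2. *Lbp*, which carries lipopolysaccharide to its receptor, stood at 73.7, 54.8, 269 and 112 TPM against 0.25 and 0 TPM (log2 fold change 6.57 ± 0.61, adjusted p = 0.000855). *Pglyrp1*, a peptidoglycan-binding protein, stood at 105, 76.3, 218 and 83.8 TPM against 0.88 and 0.23 TPM (6.19 ± 0.46, adjusted p = 0.000377). In both genes BM CD44high replicate 1 was the highest library, as it was for *Mgp*, *Trf* and *Lcn2*. *Lbp* and *Pglyrp1* were under 1 TPM in both MFP libraries and so passed the filter through BM alone. Among 25 cytokine genes 4 were higher and 4 lower, or 16% each way. The alarmin *Il33* stood at 30.4, 24.95, 42.6 and 27.2 TPM against 0.45 and 0.30 TPM (4.53 ± 0.28, adjusted p = 0.000211). The other epithelial alarmin, *Il1a*, moved the other way, at 0.08, 0, 0.20 and 0 TPM against 28.5 and 13.9 TPM (−4.29 ± 0.32, adjusted p = 0.00039), as did *Il24*, *Il23a* and *Lif*. Among 14 chemokines *Cx3cl1* (102, 268, 368 and 203 TPM against 10.9 and 8.04 TPM) and *Ccl9* were higher (4 genes without BM CD44low replicate 2). *Cxcl16* (1.51 to 6.80 TPM against 284 and 216 TPM), *Ccl5* (4.83 to 12.8 TPM against 159 and 162 TPM) and *Ccl20* were lower. Of 34 interferon-stimulated genes 2 were higher (1 without BM CD44low replicate 2) and 1 lower, near the background, and of 22 genes of MHC class I presentation only *Psmb8*, an immunoproteasome subunit, was called (85.1, 73.4, 138 and 96.6 TPM against 2.60 and 0.29 TPM).

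Claudins and desmosome genes were among the lower genes. Of 23 tested genes of tight junctions and desmosomes 11 (47.8%) were lower, 11 were not called and 1 (*Cldn9*) was higher, beside 3.93% lower and 3.97% higher of all genes. The list median was −1.95, and 12 were lower without BM CD44low replicate 2. *Cldn7*, a claudin of the mammary epithelium, stood at 0.09, 0.16, 0.24 and 0.65 TPM in BM against 428 and 321 TPM in MFP (log2 fold change −8.20 ± 0.28, adjusted p = 5.4e-05). *Cldn4* stood at 80.4, 75.2, 38.4 and 33.4 TPM against 469 and 505 TPM (−3.18 ± 0.40, adjusted p = 0.00252), while *Cldn3* kept a level of 431 to 695 TPM against 984 and 958 TPM (−0.82 ± 0.24, adjusted p = 0.0469), below the fold threshold. The desmosome genes *Dsp*, *Dsg2*, *Dsg3*, *Pkp1* and *Pkp3* and the tight junction genes *Ocln*, *Marveld2*, *Cldn1* and *Cldn23* were the other lower members, and *Pkp3* was not called with median-ratio scaling (−1.95). *Cdh1*, E-cadherin, fell to 27.0, 51.5, 25.5 and 26.7 TPM from 139 and 159 TPM (−2.22 ± 0.32, adjusted p = 0.00387), with BM CD44low replicate 2 the highest BM library. Its call was lost with median-ratio scaling (−1.80) and without MFP replicate 2 (adjusted p = 0.0534).

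Of 20 integrin and laminin genes 5 (25%) were lower, beside 3.93% lower and 3.97% higher of all genes. They included *Itgb4*, the beta chain of the hemidesmosome integrin, at 8.19, 22.2, 8.76 and 8.85 TPM against 141 and 99.97 TPM, and *Itgb6*, the beta chain of an epithelial integrin. The single higher member was *Lama4*, a laminin chain of mesenchymal and vascular basement membranes, at 8.68 to 15.3 TPM against 0.15 and 0.33 TPM. A list of epithelial transcription and splicing regulators, which also holds other epithelial genes, had 21 tested members. Of these 6 were lower and 1 higher, *Ehf* (41.1 to 59.3 TPM against 3.08 and 4.63 TPM). The lower ones were the transcription factors *Elf3*, *Gata3* and *Klf5*, and *Ap1m2*, *Cdh1* and *Rab25*, which are not regulators of this kind. With median-ratio scaling *Elf3* (−1.94) and *Klf5* (−1.66) were no longer called. The splicing regulator *Esrp1* was at 9.46, 36.0, 7.61 and 8.12 TPM against 20.9 and 21.3 TPM and was not called (−0.74 ± 0.62, adjusted p = 0.417). Of 19 genes of the EMT list 6 were higher and 2 (*Aebp1* and *Snai1*) lower. *Vim*, vimentin, stood at 531, 715, 531 and 762 TPM against 33.5 and 14.5 TPM (4.76 ± 0.35, adjusted p = 0.000377), and *Tgfb3* at 24.2, 18.7, 17.4 and 22.7 TPM against 0.37 and 0.06 TPM (4.16 ± 0.26, adjusted p = 0.00022). Both directions within one list thus occurred, with vimentin up and the transcription factor *Snai1* down, although *Snai1* was not called with median-ratio scaling (−1.78).

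**Figure D4:**
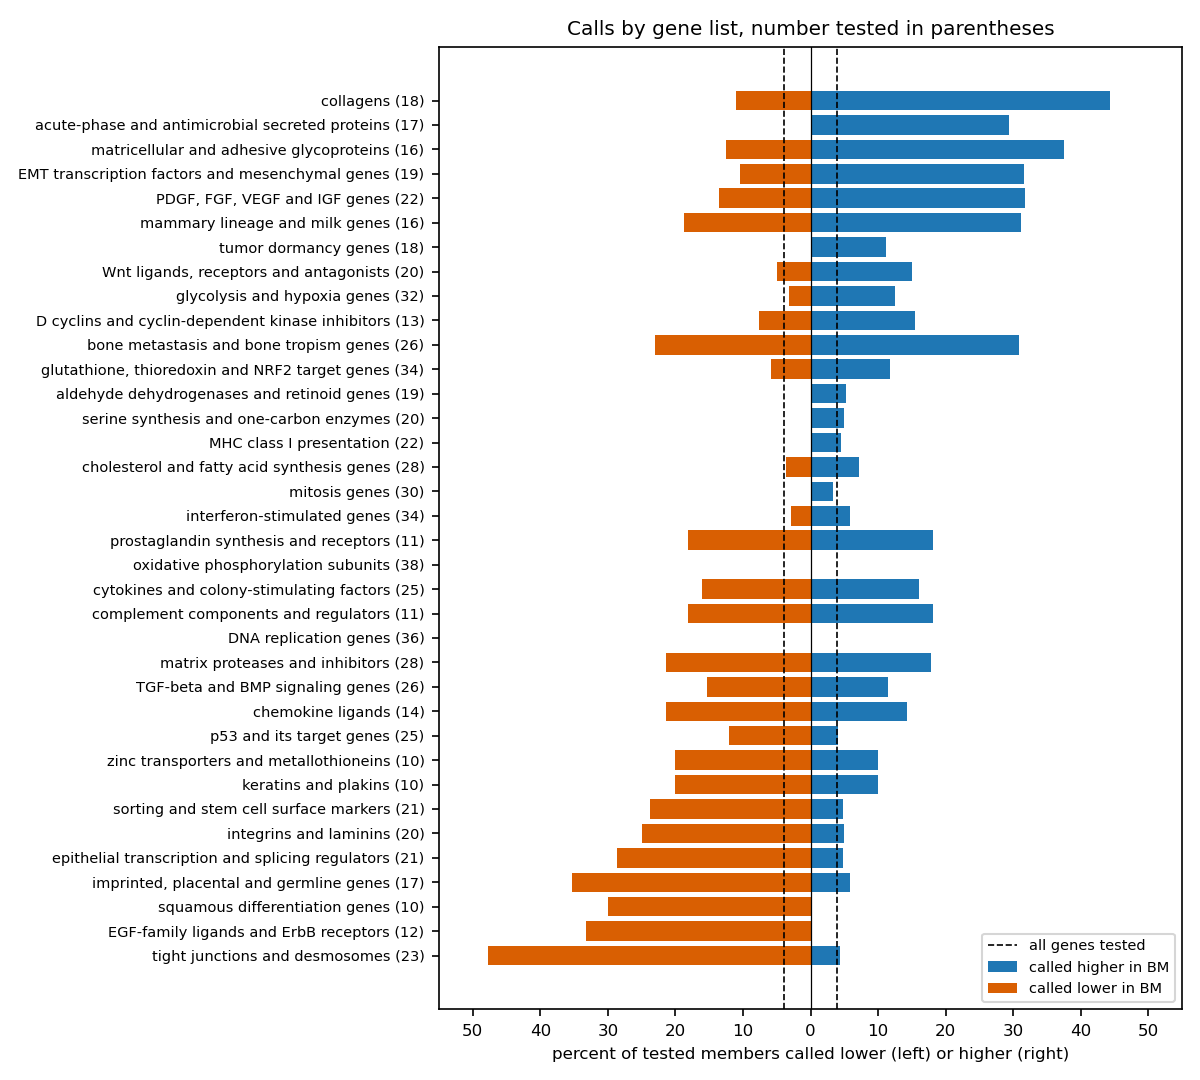
Percent of the tested members of each gene list called lower (left, orange) or higher (right, blue) in BM than in MFP, for the lists with at least 10 tested members, ordered by the percent higher minus the percent lower; dashed lines mark the shares of all genes tested. Collagens reach 44.4% higher, tight junctions and desmosomes 47.8% lower, and oxidative phosphorylation and DNA replication genes have no bar. Some members, such as *Col9a1* and *Lbp*, passed the filter through BM alone.

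Among the EGF-family ligands and the ErbB receptors they activate 4 of 12 tested genes, all of them ligands, were lower (33.3%, beside 3.93% of all genes) and 0 were higher. Of the 4, *Hbegf* was not called with median-ratio scaling (log2 fold change −1.76). *Ereg*, epiregulin, was listed at 0 in all BM libraries and at 60.7 and 46.0 TPM in MFP. *Epgn*, epigen, stood at 0, 0.10, 0 and 0 TPM against 39.2 and 33.6 TPM, and *Areg*, amphiregulin, at 36.8, 73.2, 20.2 and 16.6 TPM against 297 and 127 TPM (log2 fold change −2.61 ± 0.64, adjusted p = 0.0251). The call of *Areg* was lost without any 1 library except BM CD44low replicate 2 (adjusted p from 0.0518 to 0.19). Of the 22 PDGF, FGF, VEGF and IGF genes 7 were higher, among them the receptors *Pdgfra*, *Pdgfrb* and *Fgfr1* and the binding proteins *Igfbp2*, *Igfbp4* and *Igfbp5*, and 3 (*Nrp1*, *Pdgfb* and *Vegfc*) were lower, or 31.8% and 13.6%, with 6 higher without BM CD44low replicate 2. *Fgfr1* lost its call without MFP replicate 1 (adjusted p = 0.104) or MFP replicate 2 (0.0945). *Pdgfrb* stood at 5.29, 8.37, 7.85 and 9.90 TPM against 0.02 and 0 TPM (3.10 ± 0.29, adjusted p = 0.000884). Of 20 Wnt genes 3 (15%) were higher and 1 (5%) lower, with 3 lower without BM CD44low replicate 2. *Wif1*, a secreted Wnt antagonist, stood at 39.8, 22.5, 152 and 43.9 TPM against 0.06 and 0 TPM (5.62 ± 0.70, adjusted p = 0.00236), and the ligand *Wnt7a* at 0 to 0.07 TPM against 51.2 and 40.05 TPM (−5.49 ± 0.23, adjusted p = 7.9e-05). The BMP response genes *Id1* (37.3 to 58.7 TPM against 333 and 440.1 TPM) and *Id3* were lower. In the LN lines *Id1* stood at 499.5 and 435 TPM with CD44low and at 68.0 and 58.6 TPM with CD44high.

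The mammary lineage list had 5 higher and 3 lower of 16 tested genes, beside 3.97% and 3.93% of all genes, with a list median of 1.14. *Kit*, the progenitor receptor, was listed at 0 in MFP and stood at 4.63, 29.4, 3.75 and 5.24 TPM in BM, a call that was lost without BM CD44high replicate 2 (adjusted p = 0.0503), MFP replicate 1 (0.149) or MFP replicate 2 (0.145). *Csn3*, kappa-casein, also lost its call without either MFP library (adjusted p = 0.0928 and 0.112), and *Cited1*, a mammary coactivator, stood at 9.08 to 14.3 TPM against 0.69 and 0 TPM. *Gata3*, the luminal transcription factor, fell to 1.21, 3.21, 1.15 and 2.39 TPM from 41.4 and 36.6 TPM (−3.80 ± 0.36, adjusted p = 0.000863), and the basal keratin *Krt14* to 47.1, 36.1, 24.3 and 33.2 TPM from 594 and 655 TPM (−4.15 ± 0.27, adjusted p = 0.000234). Of the 9 basal or myoepithelial markers 3 were tested, and besides *Krt14* these were *Cnn1* (0.71 to 6.60 TPM against 0.11 and 0.21 TPM; 1.73 ± 0.67, adjusted p = 0.101) and *Trp63* (0.09 to 2.48 TPM against 0 and 0 TPM), which were not called. Of 21 sorting and stem cell surface markers and related genes 5 were lower (*Abcg2*, *Cd44*, *Ly6a*, *Myc* and *Sdc1*) and 1 (*Kit*) higher. *Ly6a*, SCA-1, stood at 5.28, 6.90, 14.6 and 9.70 TPM against 214 and 98.2 TPM (−3.94 ± 0.46, adjusted p = 0.00187), and *Myc* at 21.2 to 32.9 TPM against 187 and 154 TPM (−2.64 ± 0.22, adjusted p = 0.000572).

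Of the imprinted, placental and germline genes listed, 17 of 36 were tested, and *Rhox5* was higher while 6 (35.3%, beside 3.93% of all genes) were lower. The 6 were *Mest*, *Phlda2*, *Prl2c2*, *Prl2c3*, *Prl2c5* and *Xist*, and 7 were lower without BM CD44low replicate 2. By chromosome, X-linked genes were called often. Of 448 X-linked genes tested 39 (8.71%) were higher and 24 (5.36%) lower, against 3.81% and 3.88% of genes off the X chromosome. The shares on the autosomes ran from 2.24% higher on chromosome 7 to 7.32% on chromosome 13, and from 1.27% lower on chromosome 10 to 5.83% on chromosome 5. This was noticed after the values had been seen and is given without a test. Of the 39 genes 25 were listed at 0 in both MFP libraries, and 38 were still called without BM CD44low replicate 2. For 37 of the 39 all 4 LN libraries also lay above both MFP libraries. *Rhox5*, a reproductive homeobox gene of placenta and testis (37804842 to 37808876), led them at 515, 421, 423 and 412 TPM against 0.96 and 0.21 TPM (log2 fold change 8.17 ± 0.24, adjusted p = 3.6e-05). The LN lines held 488, 396, 446 and 432 TPM of it. *Xlr*, a lymphocyte-regulated gene related to meiotic chromosome proteins, stood at 76.2, 110.75, 63.0 and 70.2 TPM against 0 and 0.20 TPM (6.18 ± 0.28, adjusted p = 8.9e-05), and *Xlr3a*, an imprinted relative, was listed at 0 in MFP and stood at 28.8 to 45.7 TPM in BM. Most members of these families were too low to be tested, namely 27 of 34 Rhox genes, 6 of 10 Xlr genes, 11 of 14 Mage genes and 6 of 10 genes of the retrotransposon-derived Rtl family. The tested Rhox, Xlr and Mage genes were at 0.96 TPM or less in MFP and so passed the filter through BM alone. The called ones were *Rhox5*, *Rhox2d*, *Rhox2g*, *Xlr*, *Xlr3a*, *Xlr4a*, *Magea5*, *Magea8*, *Rtl3*, *Rtl8a* and *Rtl8b*. Members of the Rhox, Xlr and Mage families share near-identical copies, so reads may be divided among them in an uncertain way. *Magea8*, a melanoma antigen family gene, was listed at 0 in MFP and stood at 7.68, 5.45, 5.79 and 6.99 TPM in BM and at 15.9 to 17.7 TPM in the LN lines. *Rtl3* stood at 5.89, 7.14, 16.7 and 14.97 TPM in BM and was listed at 0 in all MFP and LN libraries. *Xist*, the RNA that coats the inactive X, went the other way, at 0, 0.01, 0.01 and 0 TPM in BM against 5.53 and 6.40 TPM in MFP (−2.79 ± 0.19, adjusted p = 0.00027). Its antisense partner *Tsix* overlaps it, and reads of the pair cannot be told apart without strand. The LN lines held at most 0.01 TPM of *Xist*. Of 8 tested genes of DNA methylation and demethylation (*Dnmt1*, *Uhrf1*, *Tet1* and others) 0 were called under the fold threshold of 2, although *Tet1* was listed at 0 in MFP and at 1.87 to 3.51 TPM in BM (adjusted p = 0.00512).

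**Figure D5:**
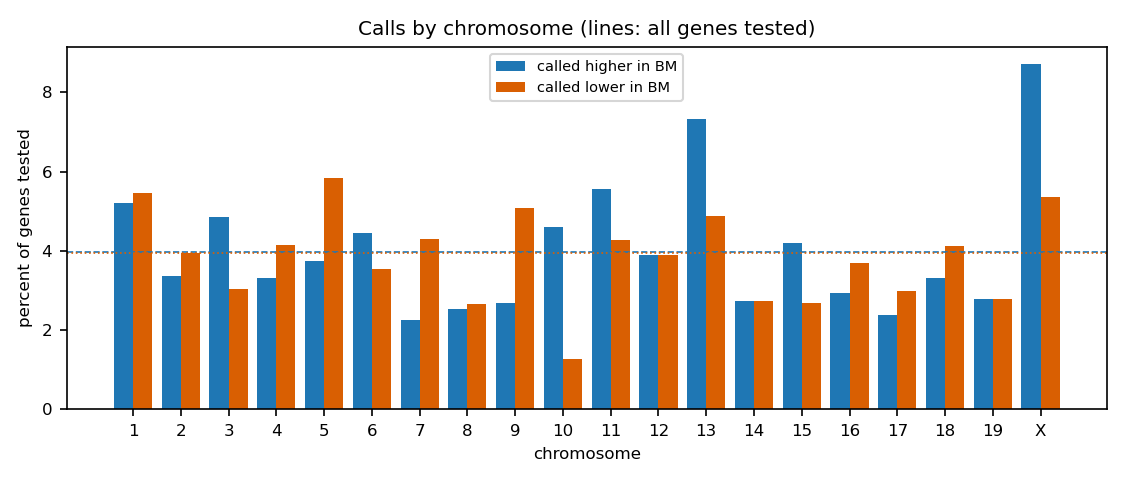
Percent of the tested genes of each chromosome called higher (blue) or lower (orange) in BM than in MFP, with horizontal lines at the shares of all genes, 3.97% and 3.93%. The X chromosome reaches 8.71% higher, chromosome 13 reaches 7.32%, and chromosome 10 has 1.27% lower.

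A group of genes was near silent in 1 group of lines and well expressed in the other. By a threshold set after seeing the values, 86 genes lay under 1 TPM in both MFP libraries and at 10 TPM or more in all 4 BM libraries, and 15 of them were on the X chromosome. The reverse held for 63 genes. In the LN lines, 32 of the 86 genes reached 10 TPM in all 4 libraries and 71 reached 1 TPM in all 4, while 0 were under 1 TPM in all 4. Of the 63 genes 47 were under 1 TPM in all 4 LN libraries and 1 reached 1 TPM in all 4. The promoters of 5 DEGs are shown because CpG dinucleotides, the sites of DNA methylation, were few in them. Of these *Magea8*, at 5.45 to 7.68 TPM in BM, is not among the 86 genes. Among 8537 tested genes with a RefSeq start in the promoter table, the 250 bases before the start held a median of 17 CpG. The median was 8 in 281 higher DEGs, 12 in 340 lower DEGs, 6 in 45 of the 86 genes, 9 in 36 of the 63 genes and 5 in 28 higher X-linked DEGs, against 12 in 309 X-linked genes tested. At least 15 CpG were present in 58.8% of all promoters, in 29.9% of those of higher DEGs and in 39.4% of those of lower DEGs. On the X chromosome the share was 39.5% of the 309 promoters tested and 3.57% of the 28 of higher DEGs. *Rhox5*, *Sparc*, *Col2a1*, *Nxf3* and *Magea5* had no matching entry. The sequences below are the 250 bases before the start, 5′ to 3′, from RefSeq on GRCm38.p6, with each CpG in capitals. They are from *Xlr* (chrX:53797707-53797956, minus strand), *Magea8* (chrX:154995851-154996100, minus strand) and *Col9a1* (chr1:24177360-24177609, plus strand), which rose from 0.20 TPM or less, and from *Cldn7* (chr11:69964529-69964778, plus strand) and *Hspb1* (chr5:135887669-135887918, plus strand), which fell to 0.85 TPM or less.
Xlr: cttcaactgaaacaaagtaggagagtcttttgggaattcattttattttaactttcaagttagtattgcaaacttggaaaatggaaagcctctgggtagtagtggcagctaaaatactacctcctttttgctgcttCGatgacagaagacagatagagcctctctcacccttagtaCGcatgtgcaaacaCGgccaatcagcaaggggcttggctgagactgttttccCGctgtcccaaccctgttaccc
Magea8: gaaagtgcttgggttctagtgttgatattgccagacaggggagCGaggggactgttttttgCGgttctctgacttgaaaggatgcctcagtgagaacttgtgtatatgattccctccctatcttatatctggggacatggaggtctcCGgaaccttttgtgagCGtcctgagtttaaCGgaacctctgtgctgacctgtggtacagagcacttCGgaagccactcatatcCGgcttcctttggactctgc
Col9a1: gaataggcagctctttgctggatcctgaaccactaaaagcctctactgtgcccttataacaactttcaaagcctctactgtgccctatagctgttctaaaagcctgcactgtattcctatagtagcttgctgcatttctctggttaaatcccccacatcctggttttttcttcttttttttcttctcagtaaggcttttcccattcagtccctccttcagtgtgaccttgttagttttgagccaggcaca
Cldn7: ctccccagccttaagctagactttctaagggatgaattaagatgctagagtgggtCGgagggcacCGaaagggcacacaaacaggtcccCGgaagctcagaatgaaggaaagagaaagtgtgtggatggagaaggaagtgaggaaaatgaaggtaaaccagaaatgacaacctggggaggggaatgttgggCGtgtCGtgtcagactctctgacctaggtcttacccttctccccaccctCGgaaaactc
Hspb1: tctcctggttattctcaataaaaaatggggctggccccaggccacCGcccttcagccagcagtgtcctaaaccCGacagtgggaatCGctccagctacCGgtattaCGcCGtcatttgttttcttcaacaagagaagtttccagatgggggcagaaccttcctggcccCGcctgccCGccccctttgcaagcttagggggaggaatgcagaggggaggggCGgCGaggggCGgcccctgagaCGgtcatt
The *Col9a1* promoter held 0 CpG, *Xlr* held 4, *Cldn7* 6, *Magea8* 7 and *Hspb1* 12. All 5 were below the median of 17 for all genes.

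The same windows were searched on both strands for 15 short motifs. These were AP-1 (TGANTCA), the TATA box (TATAAA), SOX (ACAAT), SOX/TCF (ACAAAG), GRHL (AACCNGTT), RUNX (TGTGGT), ETS (AGGAAG), TEAD (GGAATG), NF-kB (GGGA and TCC with any 3 bases between them), SP1 (GGGCGG), CRE (TGACGTCA), STAT (TTCNNNGAA), the nuclear receptor half-site (AGGTCA), the E box (CACGTG) and C/EBP (TTNNNCAA). The AP-1 motif was in 4.22% of all promoters, in 8.54% of those of higher DEGs, in 10.9% of those of lower DEGs and in 9 of 36 of the genes expressed only in MFP by that threshold. Those 9 were *Adgrf4*, *Dmd*, *Hmgcll1*, *Il1a*, *Lmo1*, *Mirt1*, *Mmp10*, *Sdcbp2* and *Selp*. The TATA box was in 7 of the 36 (19.4%) and in 5.7% of all promoters, and C/EBP in 17 of the 36 (47.2%) and in 24.5%. The promoters of higher DEGs held the TATA box in 11.7% and C/EBP in 30.2%, those of lower DEGs in 9.71% and 30.3%, and those of the 45 genes near silent in MFP in 8.89% and 33.3%, with AP-1 in 11.1% of these 45. SP1 was in 62.2% of all promoters, in 48.4% of those of higher DEGs and in 44.4% of the 36. For the other 11 motifs the shares of all promoters and of the 36 were 27.2% and 41.7% for ETS, 9.99% and 19.4% for the nuclear receptor half-site, 8.63% and 0% for the E box, and 17.1% and 11.1% for SOX. They were 11.2% and 11.1% for SOX/TCF, 1.65% and 2.78% for GRHL, 10.3% and 8.33% for RUNX, and 10.4% and 13.9% for TEAD. They were 4.53% and 2.78% for NF-kB, 3.0% and 2.78% for CRE, and 5.73% and 8.33% for STAT. With 36 promoters, 1 match is 2.78%. A match is only a description of the letters in these windows. The promoters of *Mmp10* (chr9:7502092-7502341, plus strand) and *Il1a* (chr2:129309973-129310222, minus strand) are shown with the AP-1 motif in capitals, because both genes fell to 0.51 TPM or less and both windows also hold the TATA box.
Mmp10: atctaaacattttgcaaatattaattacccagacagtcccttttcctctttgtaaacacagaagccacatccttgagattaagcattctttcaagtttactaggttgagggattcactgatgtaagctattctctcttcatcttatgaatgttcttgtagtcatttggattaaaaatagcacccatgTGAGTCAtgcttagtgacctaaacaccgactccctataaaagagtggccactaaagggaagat
Il1a: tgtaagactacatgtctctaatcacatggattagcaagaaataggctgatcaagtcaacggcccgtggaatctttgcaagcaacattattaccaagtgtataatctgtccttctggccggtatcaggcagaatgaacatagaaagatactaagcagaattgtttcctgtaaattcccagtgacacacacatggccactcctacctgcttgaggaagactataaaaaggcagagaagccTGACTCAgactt
Of 9 AP-1 subunit genes 2 were lower and 1 higher, beside 3.93% and 3.97% of all genes, a list also drawn up after the values were seen. *Fosl1* stood at 10.8, 25.4, 8.23 and 6.91 TPM in BM against 91.4 and 70.7 TPM in MFP (log2 fold change −2.73 ± 0.49, adjusted p = 0.00903). *Atf3* was lower and *Batf* higher, while *Jun* stood at 19 to 24 TPM against 59.8 and 49.8 TPM (−1.30 ± 0.19, adjusted p = 0.00392), short of the fold threshold.

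Cell cycle genes were mostly not called. Of 36 DNA replication genes 0 were called in either direction by limma, with a median of 0.06. Of 30 mitosis genes 1 was higher and 0 lower. That gene was *Birc5*, survivin, an inhibitor of apoptosis and mitotic passenger protein, at 4172, 2714, 2641 and 3560.5 TPM in BM against 161 and 146 TPM in MFP (log2 fold change 4.38 ± 0.25, adjusted p = 0.000186). The proliferation marker *Mki67* stood at 7.64, 28.1, 5.91 and 8.16 TPM against 8.01 and 6.69 TPM (0.43 ± 0.59, adjusted p = 0.637), and *Mcm2* at 49.2 to 93.4 TPM against 90.1 and 45.2 TPM. The list median was 0.50, or 0.91 with median-ratio scaling. In the LN lines *Birc5* stood at 2496, 345, 3601 and 3645 TPM. Clustered histone genes, a group listed after the values were seen, were higher in 28 of 62 tested genes and lower in 0, beside 3.97% and 3.93% of all genes, with a median of 1.97, and 26 were higher without BM CD44low replicate 2. *Hist1h4i* stood at 200.1, 142, 123 and 188 TPM against 12.9 and 21.9 TPM (3.18 ± 0.30, adjusted p = 0.000855), and *Hist1h2bp* at 77.1, 69.4, 48.6 and 48.4 TPM against 1.08 and 1.20 TPM (4.82 ± 0.26, adjusted p = 0.000161). All of the 28 except *Hist2h2be* and *Hist2h3c2* lie on chromosome 13. Histone copies have near-identical coding sequences and mostly lack a poly(A) tail, so both their counting and their capture are uncertain. Of 13 D cyclins and cyclin-dependent kinase inhibitors *Ccnd2* and *Cdkn2c* were higher and *Cdkn2b* lower. The call of *Ccnd2* was lost without any 1 of 4 libraries (BM CD44low replicate 1, BM CD44high replicates 1 and 2, MFP replicate 2; adjusted p from 0.0553 to 0.187). *Cdkn2b*, the INK4b inhibitor, stood at 0.12, 0, 0 and 0 TPM against 66.2 and 51.9 TPM (−5.86 ± 0.24, adjusted p = 7.9e-05), and the LN lines held at most 0.16 TPM. *Trp53* did not differ detectably (185 to 336 TPM against 272 and 213 TPM; 0.15 ± 0.28, adjusted p = 0.732), and of 25 genes of the p53 list 1 was higher and 3 lower (4 without BM CD44low replicate 2). Of the 3, *Plk3* and *Trp53inp1* were not called with median-ratio scaling (−1.71 and −1.69) or without any 1 library other than BM CD44low replicate 2.

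Metabolic genes moved in small numbers. Of 38 oxidative phosphorylation subunits 0 were called by limma, with a median of −0.10. Of 32 glycolysis and hypoxia genes 4 (12.5%, beside 3.97% of all genes) were higher, *Car12*, *Egln3*, *Ldhb* and *Pfkp*, and *Car9* was lower. *Ldhb*, lactate dehydrogenase B, stood at 43.5, 26.8, 31.6 and 30.4 TPM against 0.76 and 1.05 TPM (4.14 ± 0.26, adjusted p = 0.000222). Of 34 glutathione, thioredoxin and NRF2 target genes *Gsta3*, *Gstm1*, *Gstm2* and *Sod3* were higher and *Gsta1* and *Gsto1* lower, and *Gsto1* lost its call without BM CD44low replicate 2 and *Gsta1* without MFP replicate 2 (adjusted p = 0.0742). *Gstm1*, a glutathione transferase, stood at 33.5, 28.9, 59.7 and 49.0 TPM against 0.77 and 0.90 TPM (4.52 ± 0.33, adjusted p = 0.000377). *Aldh3a1*, an aldehyde dehydrogenase, stood at 532, 192, 1073 and 1164 TPM against 30.8 and 41.4 TPM (4.03 ± 0.73, adjusted p = 0.00909; 0.0863 and 0.0711 without MFP replicates 1 and 2), and it was the single call among 19 tested aldehyde dehydrogenase and retinoid genes. Of the metallothioneins, zinc-binding stress proteins, *Mt1* stood at 78.4, 104, 70.5 and 131 TPM against 721 and 1325 TPM (−3.38 ± 0.35, adjusted p = 0.00119), and *Mt2* at 2.05 to 5.57 TPM against 108 and 229 TPM, while the zinc importer *Slc39a4* was higher.

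The BM lines were then set against the LN lines, which carry the same 2 CD44 profiles in the labels, in a fit of 8 libraries that does not use MFP. Of 13310 genes tested 10 (0.0751%) were higher in BM and 2 (0.0150%) lower, or 3 and 1 without BM CD44low replicate 2. All 10 were among the 533 genes higher in BM than in MFP, and 522 of the 533 were tested and not called, which does not show that they are equal. Of the 527 lower genes 345 passed the filter and 0 were called; over the whole table the unadjusted p was under 0.05 for 856 genes higher in BM and 341 lower. Among the 10 were *Rtl3* (given above), *Dlgap1*, a synaptic scaffold gene (12.8, 14.9, 26.0 and 14.8 TPM in BM against 0.17, 0.61, 5.07 and 1.67 TPM in LN), and *H2afy2*, a macroH2A histone (5.85 to 7.89 TPM against 0 to 0.42 TPM). *Aldh3a1* (17.1, 29.0, 106 and 69.1 TPM in LN), *Gstm1* (4.15 to 16.9 TPM in LN) and *Gsta3* (0 to 3.90 TPM in LN) were also among them. *Hspb8*, a small heat shock protein, was higher in BM than in MFP (19.3 to 33.6 TPM against 2.47 and 4.53 TPM) and lower in BM than in LN (245, 112, 80.4 and 78.2 TPM). The count of higher genes was 3 without BM CD44low replicate 2, 0 without BM CD44high replicate 1 or LN CD44high replicate 2 (609 and 613 at an unadjusted p under 0.05), 2 without LN CD44low replicate 1, and 5 without LN CD44low replicate 2 or LN CD44high replicate 1.

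Few genes differed between the CD44 profiles that were pooled. Between BM CD44high and CD44low 13 genes (0.0969%) were higher and 20 (0.149%) lower of 13410 tested. Of the 1060 DEGs 0 were among them. The pooled fit counts a CD44 difference as spread, which keeps such genes from being DEGs, so this 0 is no check on the pooling. Many of the genes called between the CD44 profiles were short RNAs, some with copies of identical values. The 13 thus held 9 distinct sets of values and the 20 held 14. The protein-coding ones were *Saa3*, an acute-phase serum amyloid gene, at 827 and 317 TPM in CD44high against 9.15 and 11.2 TPM in CD44low, and *Asdurf*, at 0 and 0 TPM against 21.6 and 16.6 TPM. Rescaling TPM over protein-coding genes left 0 calls in either direction (163 and 219 genes at an unadjusted p under 0.05), and the counts were 60 and 895 without BM CD44low replicate 1, 10 and 2 without BM CD44low replicate 2, 1 and 4 without BM CD44high replicate 1, and 0 and 0 without BM CD44high replicate 2 (136 and 221 at an unadjusted p under 0.05). These fits leave 1 library in an arm, which is assumed to vary like the other groups.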

How the data were processed

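Total RNA of the lines was converted to cDNA by a modified SMART-seq2 protocol and sequenced on a NextSeq 500. Per the labels and methods, the authors aligned reads to mm10 with STAR and quantified genes with RSEM on what the methods call GENCODE v21 of the mouse; the versions of these tools are not given in the sources used here. The authors deposited TPM for 55450 genes in 14 bulk libraries, not counts, so depth and counting error are unknown and the number of isolates limits the precision. Symbols, biotypes and coordinates came from GENCODE vM21, which matched all 55450 IDs. Single-cell files hold no BM or MFP cells and were not used here.

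Groups came from the labels. log2(TPM + 1) was fitted with limma 3.58.1 (lmFit, eBayes with trend) in R 4.3.3, 4 BM against 2 MFP libraries with 4 residual degrees of freedom, for genes with TPM of 1 or more in 2 or more libraries. A gene was called a DEG when its log2 fold change exceeded 2 in size and its p, adjusted by Benjamini-Hochberg across the tested genes, was below 0.05. An exact permutation test of 4 against 2 cannot go below p = 0.133, so single values were tested only in the fit across genes. BM against LN was fitted over 8 libraries with CD44 profile as a covariate, and BM CD44high against CD44low as 3 group means. The script was tested on simulated data.

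Members and gene lists were chosen with earlier results of these data known. Genes were named by rule: the 10 largest rises and falls, up to 4 DEGs and the first gene of each list, the bone marrow panel of the study, markers, and the largest differences against LN and between CD44 profiles; cartilage, X-linked, histone and other groups said to be chosen after their values were seen fall outside it. A few items that the rule names are not reported here. The replicates of a group came from different mice by the methods, but whether same-numbered libraries of different groups share a mouse is not given in the sources used here, so samples were not paired. Promoters came from RefSeq on GRCm38.p6, matched where the start lay within 1000 bases of the annotated start. Alternatives changed the pseudocount, the filter, the scaling, the libraries and the model.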

Additional observations from a re-analysis of the deposited data

Results flagged for a closer look

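In 21 values, 1 of the 4 BM libraries lay far from the other 3 by Dixon's test at 95%, out of 124 named genes and the library measures; chance alone marks about 1 in 20. BM CD44low replicate 2 was the highest BM library for *Cdh1* at 51.5 TPM, *Fgfr1* at 148 TPM, *Fzd7* at 37.3 TPM, *Itgb4* at 22.2 TPM, *Kit* at 29.4 TPM, *Plk3* at 4.61 TPM, *Trp53inp1* at 8.01 TPM and *Epgn* at 0.10 TPM, and the lowest for *Clu* at 53 TPM. It also stood apart in the number of genes at 1 TPM or more (13052), in *Rn7s1* (112.6 TPM), *Rn7s2* (0 TPM), *Rn7sk* (61.2 TPM) and *mt-Co1* (581.1 TPM). BM CD44low replicate 1 was the highest for *Ap1m2* (0.27 TPM), *Cd55* (0.07 TPM), *Cdkn2b* (0.12 TPM) and *Hspb1* (0.85 TPM), all within 1 TPM of 0, and for *Rhox5* (515 TPM) and *Tgfb2* (14.5 TPM). BM CD44high replicate 1 was the lowest for *Gsta1* (6.81 TPM). Only DEGs were screened among the genes. In every DEG all 4 BM libraries lay on 1 side of both MFP libraries, so that side is no check on the outlying values.

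Between the CD44 profiles, tested directly by limma, 13 genes were higher and 20 lower in BM CD44high than in BM CD44low. The log2 difference, CD44high minus CD44low, was 5.53 for *Saa3* and −4.32 for *Asdurf*. It was −6.43 for the small nucleolar RNA *Snord19*, 8.31 for *Gm44314*, which shares its values with 4 other named copies, and −7.25 for *Gm19658*, which shares its values with 3.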

How the results depend on the processing

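With a pseudocount of 0.1 there were 1074 higher and 799 lower DEGs between BM and MFP. Leaving out each library in turn gave 383 to 528 higher and 247 to 608 lower, and the lower count fell to 247 without MFP replicate 1 and to 250 without MFP replicate 2. The other settings gave 475 to 656 higher and 369 to 538 lower. *Epcam* changed sign to 0.06 with median-ratio scaling. Leaving out libraries gave *Adamts1* −1.79 to 0.16, the latter without MFP replicate 1, and neither gene was called in any fit. Of the other values of named genes 1932 kept their direction and call, 81 lost the call and 16 gained it, the cause of which was not tested.

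Counts of BM against LN were less stable. They were 0 and 0 with no filter (1475 and 520 genes at an unadjusted p under 0.05), 2 and 1 at a minimum of 5 TPM, 4 and 1 without the CD44 covariate, and 55 and 8 with all 14 libraries. With TPM rescaled over protein-coding genes, an alternative chosen after seeing the data, 30 were higher. Leaving out libraries gave 0 to 8 higher and 1 to 4 lower. Between the CD44 profiles the counts were 5 and 1 with no filter, 8 and 8 with all libraries and 0 and 0 with protein-coding rescaling. Leaving out libraries gave 0 to 60 higher and 0 to 895 lower.

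Deviations of same-numbered libraries correlated at −0.193 to 0.154, which does not settle whether the numbers pair samples. A replicate block gave 523 and 524 DEGs for BM against MFP, 3 and 1 for BM against LN, and 10 and 9 for the CD44 profiles. With only 2 MFP isolates, the spread of the primary tumor rests on 1 pair, and without depth a listed 0 cannot be told from a low level.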
